A study of Mus musculus with 6 samples.

Results

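The 50 genes described here encode the machinery that copies DNA and the machinery that divides the copied chromosomes, and they were measured in mouse bone marrow cells carrying mutants of CSF3R, through which granulocyte colony-stimulating factor (G-CSF) acts on cells. They were chosen by symbol, 24 for their part in replication and 26 for their part in mitosis. All 50 were found among the 23417 genes with a symbol, and all 50 were among the 11188 genes tested, which reached 1 FPKM or more in at least 2 libraries. FPKM counts sequenced fragments per kilobase of a gene's transcript and per library depth.

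There were 6 libraries of RNA, each from C57BL/6 marrow cells selected for Kit (CD117), the receptor for stem cell factor, which marks blood stem and progenitor cells. The cells were transduced by retrovirus with a control vector, with the single mutants W791, Q741 or T618I, or with the double mutants T618I/Q741 or T618I/W791. All were cultured with the cytokines FLT3, IL-6, IL-3 and mSCF, sorted for transduced cells and grown overnight. Every library thus came from primary cells under growth-promoting cytokines, and every group shares that culture. The series contrasts proximal and double mutants, called leukemogenic there, with truncations, called non-leukemogenic: T618I changes the receptor close to the membrane, and W791 and Q741 shorten its tail inside the cell. The classes compared were therefore T618I-containing libraries (n = 3), truncations alone (n = 2) and vector (n = 1). No library carried the unmutated receptor, so a comparison with vector mixes adding a receptor with its mutation. Each construct was sequenced once and no label names separate animals or cultures, so an SD or a p-value here reflects how constructs of one class differed, which may be partly technical.

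A cell commits to a division by letting E2F transcription factors switch on the genes of DNA synthesis. Cyclin E with its kinase then starts replication at origins where the Mcm2 to Mcm7 helicase ring was loaded in G1 phase. Genes for mitosis are switched on later, in G2 phase, by B-Myb and FoxM1 together with the MuvB complex, which binds a short promoter element called CHR. In marrow, early progenitors cycle, whereas granulocyte precursors leave the cell cycle as they mature into neutrophils, so the RNA of these genes is widely used as a readout of how many cells in a population are dividing.

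The 50 genes were at their lowest in the T618I/Q741 library without exception, and 43 of them were at their highest in the T618I/W791 library. The same placement was common among all genes tested: 44.9% were lowest of the 6 libraries in T618I/Q741, 33.7% were highest in T618I/W791, and 25.4% were both. Of the 43, 21 are replication genes and 22 are mitotic genes. The exceptions were Mcm7, Cdt1, E2f1, Foxm1, Cenpf and Kif23, each highest with vector, where 21.2% of all genes had their maximum, and Bub1b, highest with Q741, where 11.5% did. Between the double mutants the median difference was 1.17 on the log2(FPKM + 1) scale over the 50 genes, against 0.12 over all genes tested. No test is possible between single libraries, and in the class comparison that can be tested, in which both double mutants stand on the same side, none of the 50 passed.

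**Figure D1:**
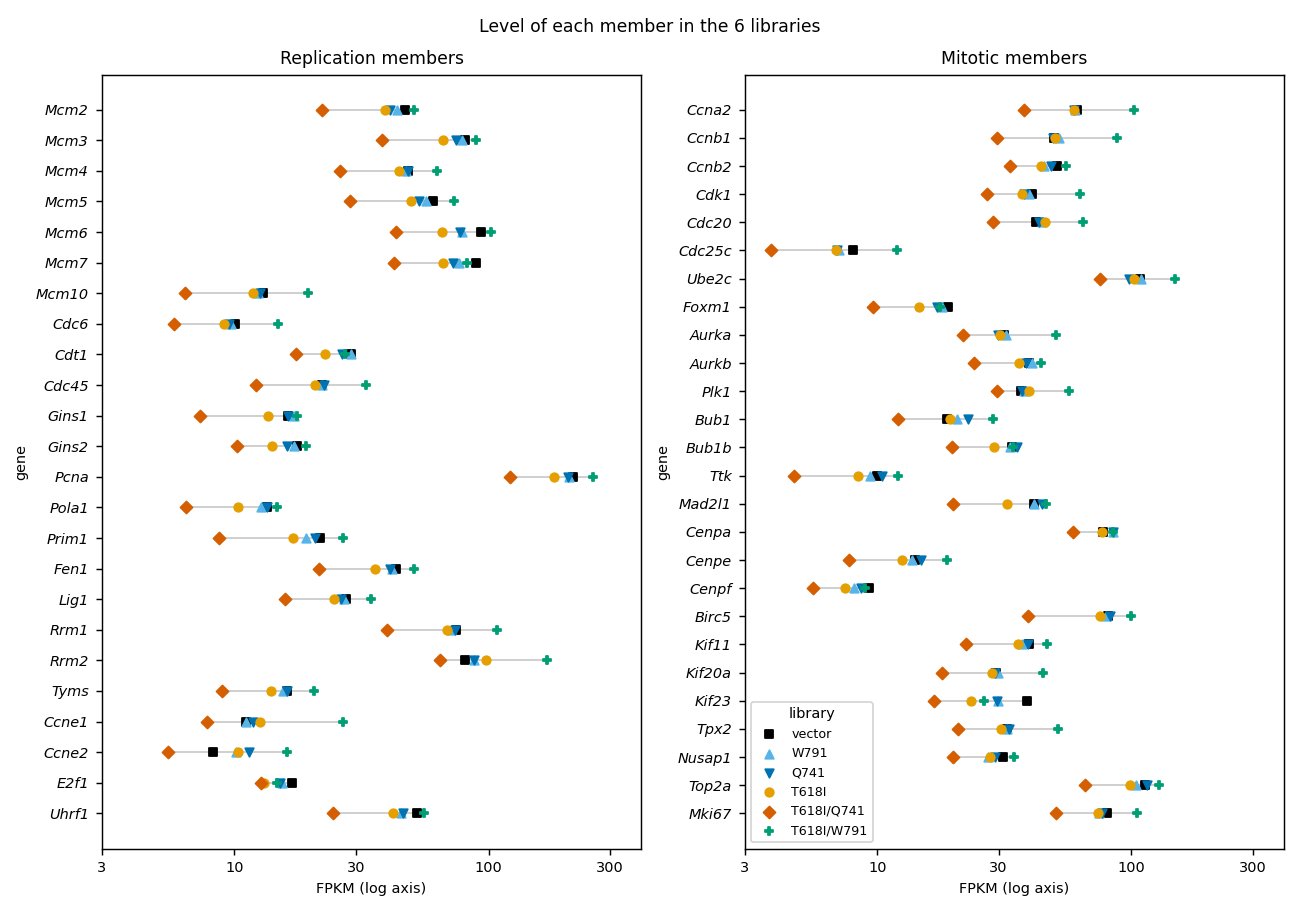
FPKM of each of the 24 replication genes (left) and 26 mitotic genes (right) in the 6 libraries, 1 symbol per library, on a log axis. The diamond of T618I/Q741 is leftmost in all 50 rows, and the plus of T618I/W791 is rightmost in 43.

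Promoter sequences are shown because the replication and mitotic genes were all lowest in the same library, and E2F sites and the CHR are the elements known for each kind. RefSeq windows on GRCm38.p6 (the build mm10), from 250 bases before to 50 bases after each start, were matched for 40 of the 50 genes, which are 20 replication and 20 mitotic genes. No window was matched for Mcm4, Gins1, Gins2, Ccne2, Ccna2, Cdc25c, Foxm1, Aurkb, Kif20a and Tpx2. Each window was searched on both strands for an E2F site (TTTCCCGC, TTTCGCGC, TTTGCCGC or TTTGGCGC), a CHR (TTTGAA) and a CCAAT box (CCAAT). The E2F letters stood in 22.2% of the 45 windows of these genes, compared with 2.26% of all 32851 windows and 4.04% of the windows of tested genes. By gene, 10 of the 40 had them in a window. They were Mcm3, Mcm5, Mcm6, Mcm7, Cdc6, Cdt1, Pola1, Lig1 and Uhrf1 from the replication genes and Cdk1 from the mitotic genes. The CHR letters stood in 37.8% of the 45 windows, compared with 17.9% of all windows and 12.1% of those of tested genes. By gene, 17 of the 40 had them. Of these, Aurka, Bub1b, Ccnb2, Cdc20, Cdk1, Cenpa, Cenpf, Kif11, Kif23, Mki67, Plk1, Top2a, Ttk and Ube2c are mitotic, and Cdc45, Fen1 and Mcm2 are replication genes. The CCAAT letters were found in 71.1% of the 45 windows, compared with 37.4% of all windows and 37.8% of those of tested genes. By gene, 30 of the 40 had them. Fewer than 80% of the mitotic genes had a window, so no share over them alone is given. A match is a run of letters, and whether a factor bound there was not measured.

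Printed here are up to 160 bases before the RefSeq start of 8 genes, 5′ to 3′ on the gene's own strand, with matches in capitals. In Mcm5 and Mcm6, E2F letters on opposite strands overlap, so each longer capital run holds 2 matches. CHR appears as TTTGAA or its complement TTCAAA, and the CCAAT box as CCAAT or ATTGG.
Mcm5 (chr8:75109349-75109467, plus strand): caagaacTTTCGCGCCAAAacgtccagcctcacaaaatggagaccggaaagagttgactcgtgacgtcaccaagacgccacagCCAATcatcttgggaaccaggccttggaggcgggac
Mcm6 (chr1:128359706-128359865, minus strand): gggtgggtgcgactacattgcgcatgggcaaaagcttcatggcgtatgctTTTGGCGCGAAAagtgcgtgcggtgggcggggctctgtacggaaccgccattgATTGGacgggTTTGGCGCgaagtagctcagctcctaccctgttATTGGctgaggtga
Ccne1 (chr7:38107535-38107650, minus strand): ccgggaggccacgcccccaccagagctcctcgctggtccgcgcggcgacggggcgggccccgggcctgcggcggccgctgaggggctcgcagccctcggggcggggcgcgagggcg
Cdk1 (chr10:69352939-69353072, minus strand): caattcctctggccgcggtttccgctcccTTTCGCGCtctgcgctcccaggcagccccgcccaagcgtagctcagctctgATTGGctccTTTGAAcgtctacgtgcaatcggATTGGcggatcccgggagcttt
Cdc20 (chr4:118437353-118437503, minus strand): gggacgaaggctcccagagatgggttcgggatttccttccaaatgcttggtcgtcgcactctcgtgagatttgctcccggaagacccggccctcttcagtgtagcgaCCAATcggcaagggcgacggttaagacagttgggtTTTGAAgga
Kif11 (chr19:37376222-37376381, plus strand): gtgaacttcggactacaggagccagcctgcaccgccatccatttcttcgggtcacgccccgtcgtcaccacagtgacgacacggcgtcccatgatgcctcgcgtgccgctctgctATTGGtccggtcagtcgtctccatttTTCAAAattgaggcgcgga
Top2a (chr11:99024200-99024349, minus strand): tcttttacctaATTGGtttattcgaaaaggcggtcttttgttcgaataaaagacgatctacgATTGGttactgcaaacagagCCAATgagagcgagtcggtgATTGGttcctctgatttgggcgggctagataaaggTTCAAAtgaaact
Mki67 (chr7:135716451-135716539, minus strand): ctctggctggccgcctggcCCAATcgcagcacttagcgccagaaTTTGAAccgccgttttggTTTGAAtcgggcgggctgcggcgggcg
Mcm5 and Mcm6 stand for the helicase genes with E2F letters. Ccne1 is shown because it had the widest range of the 50 genes across libraries, although its printed stretch holds none of the 3 motifs. Cdk1 is the mitotic gene whose stretch holds both E2F and CHR letters. Cdc20, Kif11, Top2a and Mki67 hold CHR letters next to CCAAT boxes, without E2F letters.

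The helicase and licensing genes were the largest replication group, with 12 members: the ring subunits Mcm2 to Mcm7, the loading factors Cdc6 and Cdt1, and Mcm10, Cdc45, Gins1 and Gins2, which turn the loaded ring into a moving helicase. The level of Mcm2 was 47.1 FPKM with vector and 38.97 with T618I, 43.6 with W791 and 50.96 with T618I/W791, and 41.1 with Q741 and 22.02 with T618I/Q741. For Mcm3 the level was 80.6 FPKM with vector and 66.4 with T618I, 78.3 with W791 and 89.4 with T618I/W791, and 74.3 with Q741 and 38.1 with T618I/Q741. Mcm4 reached 48.2 FPKM with vector and 44.3 with T618I, 47.2 with W791 and 62.4 with T618I/W791, and 48.3 with Q741 and 25.9 with T618I/Q741. In each of these ring subunits T618I lay below the vector, W791 and Q741 libraries, T618I/Q741 lay far below them, and T618I/W791 lay above. Among the libraries without T618I the highest exceeded the lowest by 14.6% for Mcm2, 8.43% for Mcm3 and 2.40% for Mcm4.

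Mcm5 was at 60.3 FPKM with vector and 49.4 with T618I, 56.8 with W791 and 73.2 with T618I/W791, and 53.4 with Q741 and 28.5 with T618I/Q741. Mcm6 was at 93.4 FPKM with vector and 65.7 with T618I, 78.9 with W791 and 102 with T618I/W791, and 77.4 with Q741 and 43.4 with T618I/Q741. The 3 libraries without T618I were farther apart for Mcm6, with vector nearly at the level of T618I/W791. Mcm7 was at 89.5 FPKM with vector and 66.3 with T618I, 76.6 with W791 and 82.1 with T618I/W791, and 72.7 with Q741 and 42.4 with T618I/Q741. Mcm7 was the only ring subunit whose vector library exceeded T618I/W791, and its T618I/W791 level was 1.94 times its T618I/Q741 level, the smallest ratio of the 6 subunits, the largest being 2.57 for Mcm5.

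Mcm10, which helps the ring open its DNA, was at 13.01 FPKM with vector and 11.8 with T618I, 12.4 with W791 and 19.5 with T618I/W791, and 12.6 with Q741 and 6.38 with T618I/Q741. Its T618I/W791 level was 3.06 times its T618I/Q741 level. Gins1, a subunit of the GINS complex that joins Cdc45 to the ring, was at 16.2 FPKM with vector and 13.5 with T618I, 17.1 with W791 and 17.6 with T618I/W791, and 16.3 with Q741 and 7.33 with T618I/Q741. Gins2, another subunit of GINS, was at 17.7 FPKM with vector and 13.99 with T618I, 17.1 with W791 and 19.04 with T618I/W791, and 16.03 with Q741 and 10.2 with T618I/Q741. T618I/W791 exceeded the highest of the libraries without T618I only narrowly in both GINS genes, while T618I/Q741 stood well below the lowest of them. Cdc6, which loads the ring at origins, was at 10.1 FPKM with vector and 9.08 with T618I, 9.66 with W791 and 14.9 with T618I/W791, and 9.49 with Q741 and 5.81 with T618I/Q741. Cdc45 was between 12.1 FPKM with T618I/Q741 and 33.0 FPKM with T618I/W791. Cdt1, the partner of Cdc6 in loading, was between 17.5 FPKM with T618I/Q741 and 28.8 FPKM with vector. Over the 12 genes the median difference of T618I/W791 from T618I/Q741 was 1.21 on the log2 scale, with a range from 0.61 to 1.48.

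Genes that act at the moving fork were Pcna, Pola1, Prim1, Fen1 and Lig1. Pcna, the sliding clamp that holds polymerases on DNA, was at 215 FPKM with vector and 181 with T618I, 207 with W791 and 258 with T618I/W791, and 205 with Q741 and 122 with T618I/Q741. It had the highest FPKM of the 50 genes in every library, with T618I/W791 highest, T618I/Q741 lowest and T618I next to lowest. Pola1, the catalytic subunit of the polymerase that starts each strand, was at 13.4 FPKM with vector and 10.4 with T618I, 12.7 with W791 and 14.7 with T618I/W791, and 13.4 with Q741 and 6.45 with T618I/Q741. Lig1, the ligase that seals Okazaki fragments, was at 27.5 FPKM with vector and 24.8 with T618I, 27.04 with W791 and 34.4 with T618I/W791, and 26.2 with Q741 and 15.8 with T618I/Q741. Both showed the same order of the extremes, with T618I the next to lowest. Prim1, the primase subunit, ranged from 8.68 FPKM with T618I/Q741 to 26.7 FPKM with T618I/W791, a ratio of 3.07, and Fen1, the flap endonuclease, ranged from 21.5 FPKM to 50.8 FPKM between the same libraries. All 5 were at least 2-fold higher in T618I/W791 than in T618I/Q741 on the log2(FPKM + 1) scale, with a median of 1.08.

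Nucleotide supply was represented by Rrm1 and Rrm2, the subunits of ribonucleotide reductase, and Tyms, thymidylate synthase. Rrm1 was at 74.3 FPKM with vector and 68.5 with T618I, 70.96 with W791 and 108 with T618I/W791, and 74.1 with Q741 and 39.7 with T618I/Q741. Rrm2 was at 80.99 FPKM with vector and 97.7 with T618I, 87.4 with W791 and 169 with T618I/W791, and 87.5 with Q741 and 64.2 with T618I/Q741. The 2 subunits were ordered differently: T618I was below the libraries without T618I for Rrm1 and above all 3 of them for Rrm2, and the T618I/W791 level of Rrm2 was 1.94 times the W791 level. Tyms was at 16.1 FPKM with vector and 13.98 with T618I, 15.5 with W791 and 20.6 with T618I/W791, and 16.2 with Q741 and 8.94 with T618I/Q741. Over the 3 genes the median difference of T618I/W791 from W791 was 0.60 on the log2 scale, compared with 0.29 over the helicase genes and 0.32 over the fork genes.

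Among regulators of entry into S phase, Ccne1, which encodes cyclin E1 (mm10 chr7:38097984-38107534, minus strand), was at 11.1 FPKM with vector and 12.6 with T618I, 11.1 with W791 and 26.8 with T618I/W791, and 11.8 with Q741 and 7.77 with T618I/Q741. It was the only one of the 50 genes at least 2-fold higher in T618I/W791 than in W791 on the log2 scale, where 2.34% of all genes were, and also the only one at least 2-fold higher in T618I/W791 than in T618I, where 1% of all genes were. The ratio of its highest to its lowest library was 3.45, the widest of the 50. Ccne2, cyclin E2, was at 8.24 FPKM with vector and 10.3 with T618I, 10.2 with W791 and 16.2 with T618I/W791, and 11.4 with Q741 and 5.49 with T618I/Q741. It was also the gene that differed most among the libraries without T618I, by 38.1% of the lowest. E2f1 (mm10 chr2:154559407-154569892, minus strand), the transcription factor that drives replication genes, was at 16.8 FPKM with vector and 13.1 with T618I, 15.4 with W791 and 14.7 with T618I/W791, and 15.1 with Q741 and 12.8 with T618I/Q741. Its levels spanned 1.32-fold from lowest to highest library, the narrowest range of the 50 genes, and T618I/Q741 and T618I lay within 1 FPKM of each other. Uhrf1, which carries DNA methylation through replication, was at 52.2 FPKM with vector and 41.9 with T618I, 45.4 with W791 and 55.6 with T618I/W791, and 46.1 with Q741 and 24.4 with T618I/Q741. E2f1 thus departed from its own group, in which the other 3 genes differed by 2.28 to 3.45 times between T618I/Q741 and T618I/W791.

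Mitotic entry and exit were covered by 8 genes: the cyclins Ccna2, Ccnb1 and Ccnb2, their kinase Cdk1, the phosphatase Cdc25c that activates it, Cdc20 and Ube2c of the ubiquitin system that destroys the cyclins, and the transcription factor Foxm1. Ccnb1, cyclin B1, was at 49.7 FPKM with vector and 49.9 with T618I, 51.9 with W791 and 87.6 with T618I/W791, and 49.2 with Q741 and 29.5 with T618I/Q741. Ccnb2, cyclin B2, was at 50.8 FPKM with vector and 43.9 with T618I, 45.2 with W791 and 55.1 with T618I/W791, and 48.2 with Q741 and 33.1 with T618I/Q741. T618I lay among the libraries without T618I for Ccnb1 and below all 3 for Ccnb2, and T618I/W791 stood further above them for Ccnb1 than for Ccnb2. Cdk1 was at 40.8 FPKM with vector and 37.2 with T618I, 39.4 with W791 and 62.8 with T618I/W791, and 37.8 with Q741 and 26.97 with T618I/Q741. Foxm1, which switches on mitotic genes, was at 18.9 FPKM with vector and 14.6 with T618I, 17.9 with W791 and 17.6 with T618I/W791, and 17.2 with Q741 and 9.61 with T618I/Q741. The T618I/W791 level of Foxm1 was below vector, unlike those of Ccnb1, Ccnb2 and Cdk1. Cdc25c had the largest ratio of the mitotic genes, from 3.82 FPKM with T618I/Q741 to 11.9 FPKM with T618I/W791. Between the same libraries Cdc20 went from 28.5 FPKM to 64.4 FPKM. Ube2c lay between 75.2 FPKM and 149 FPKM. Ccna2 lay between 37.9 FPKM and 102 FPKM, so 7 of the 8 genes had the double mutants as their extremes, Foxm1 being the other.

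Mitotic kinases and the spindle checkpoint gave 7 genes. Aurka, the kinase of the spindle poles, was at 31.5 FPKM with vector and 30.3 with T618I, 32.02 with W791 and 50.4 with T618I/W791, and 29.7 with Q741 and 21.7 with T618I/Q741. Aurkb, the kinase of the chromosomal passenger complex at centromeres, was at 39.6 FPKM with vector and 36.1 with T618I, 40.5 with W791 and 43.97 with T618I/W791, and 38.4 with Q741 and 24.03 with T618I/Q741. For Aurka the T618I/W791 level was 1.58 times that of W791, and for Aurkb it was 1.08 times. Plk1, the polo-like kinase of mitotic entry, was at 36.9 FPKM with vector and 39.5 with T618I, 37.8 with W791 and 56.9 with T618I/W791, and 37.1 with Q741 and 29.6 with T618I/Q741. It was one of 4 genes, with Rrm2, Ccne1 and Cdc20, in which T618I lay above all 3 libraries without T618I.

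Bub1, a checkpoint kinase at kinetochores, was at 18.9 FPKM with vector and 19.3 with T618I, 20.5 with W791 and 28.5 with T618I/W791, and 22.7 with Q741 and 12.1 with T618I/Q741. Bub1b, whose product BubR1 holds back the anaphase-promoting complex, was at 33.7 FPKM with vector and 28.7 with T618I, 33.2 with W791 and 34.3 with T618I/W791, and 35.5 with Q741 and 19.6 with T618I/Q741. Mad2l1, the checkpoint protein that binds Cdc20, was at 41.3 FPKM with vector and 32.5 with T618I, 41.5 with W791 and 46.3 with T618I/W791, and 44.4 with Q741 and 19.9 with T618I/Q741. T618I/Q741 was lowest in each. T618I/W791 stood well above the libraries without T618I for Bub1, just above them for Mad2l1, and among them for Bub1b. Ttk, the Mps1 kinase, ranged from 4.71 FPKM with T618I/Q741 to 12.1 FPKM with T618I/W791.

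At centromeres and kinetochores, Birc5, the survivin subunit of the chromosomal passenger complex, was at 80.8 FPKM with vector and 74.98 with T618I, 79.1 with W791 and 99.8 with T618I/W791, and 82.4 with Q741 and 39.02 with T618I/Q741. Cenpf, a protein of the outer kinetochore, was at 9.30 FPKM with vector and 7.43 with T618I, 8.10 with W791 and 8.96 with T618I/W791, and 8.58 with Q741 and 5.57 with T618I/Q741. Cenpa, the histone of centromeres, was at 59.1 FPKM with T618I/Q741 and between 76.6 and 85.0 FPKM in the other 5 libraries, and its T618I/W791 level equalled that of W791 to within 1%. Cenpe, a kinetochore motor, ranged from 7.77 FPKM to 18.8 FPKM. These 4 genes had the smallest median difference between the double mutants of the 8 functional groups, 0.89 on the log2 scale.

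The spindle and chromosome group held the motors Kif11, Kif20a and Kif23, the microtubule proteins Tpx2 and Nusap1, the topoisomerase Top2a and Mki67, the chromosome surface protein Ki-67 used to stain dividing cells. Kif23 (mm10 chr9:61915905-61946774, minus strand), the motor of the central spindle needed for cytokinesis, was at 38.98 FPKM with vector and 23.5 with T618I, 29.9 with W791 and 26.3 with T618I/W791, and 29.7 with Q741 and 16.8 with T618I/Q741. Vector was highest by a wide margin and all 3 T618I-containing libraries were below all 3 others. Tpx2, which activates Aurora A on the spindle, was at 32.2 FPKM with vector and 30.8 with T618I, 32.4 with W791 and 51.5 with T618I/W791, and 33.04 with Q741 and 20.8 with T618I/Q741. Mki67 ranged from 50.5 FPKM with T618I/Q741 to 106 FPKM with T618I/W791, with 73.6 to 79.8 FPKM in the other 4 libraries. Top2a, which untangles sister chromosomes, ranged from 65.7 FPKM to 129 FPKM between the double mutants. Kif11, the motor that pushes spindle poles apart, ranged from 22.3 FPKM to 46.4 FPKM. Kif20a, another motor of cytokinesis, ranged from 18.0 FPKM to 45.0 FPKM. Nusap1 ranged from 19.8 FPKM to 34.6 FPKM, so that apart from Kif23 every gene of the group had the double mutants as its extremes.

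The vector, W791 and Q741 libraries gave a measure of how far libraries without T618I differ. Over the 50 genes the highest of these 3 exceeded the lowest by a median of 7.78%, from 2.34% for Cdc45 to 38.1% for Ccne2. The median was 13.4% over the 11157 tested genes above 0 in all 3 libraries. Those genes were not matched in level to the 50, all of which averaged 5 FPKM or more. Q741 was above W791 in 24 genes, where 46.1% of all genes were, and below in 26, where 53.9% were. Q741 was below vector in 32 genes and W791 in 35, where 55.9% and 52.4% of all genes were. These counts depend on the scaling. With equal FPKM totals Q741 was above vector in 27 genes and below in 23, where 6397 and 4786 of all 11188 genes were. Under the same totals Q741 was above W791 in 36 genes and below in 14. The count over all genes for that pair is not reported here. No direction is drawn from any of these counts. None of the 50 differed 2-fold among these 3 libraries. Of all genes, 0.0447% were 2-fold higher and 0.67% 2-fold lower in Q741 than in W791, 0.152% and 0.822% in Q741 than in vector, and 0.268% and 0.304% in W791 than in vector. By contrast the T618I/Q741 library lay below all 3 of these libraries in all 50 genes, as it did in 59.4% of all genes tested. The T618I/W791 library lay above all 3 in 43, as it did in 41.4% of all genes. T618I alone lay below all 3 in 39, as it did in 45.9% of all genes, and above all 3 in 4, as it did in 23.3%. How much construct-matched libraries would vary was not measured.

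**Figure D2:**
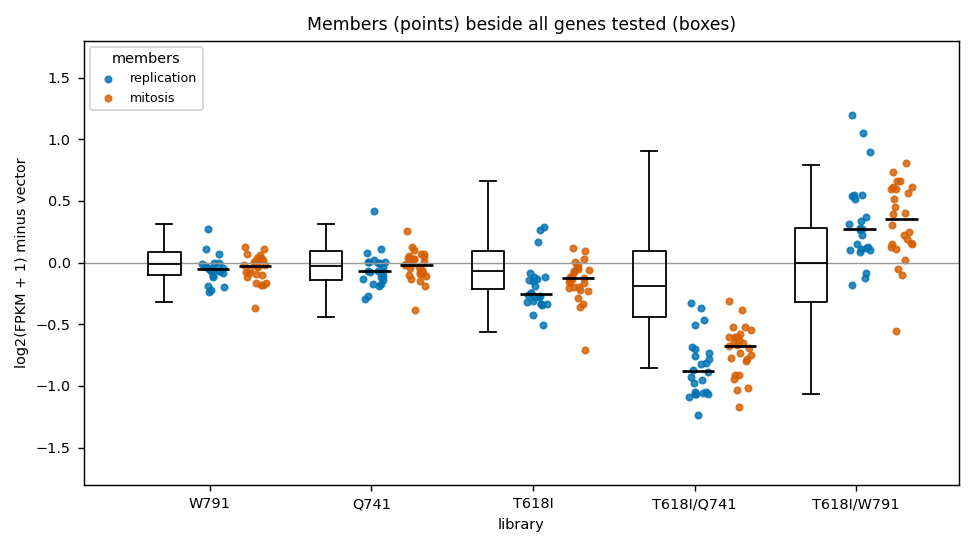
Difference of each library from vector in log2(FPKM + 1) for the 24 replication genes and 26 mitotic genes (points, with a black bar at the median) beside all 11188 genes tested (box at the quartiles, whiskers at the 5th and 95th percentiles). W791 and Q741 sit around 0, T618I slightly below, T618I/Q741 well below and T618I/W791 above.

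The pairs of libraries that differ by T618I alone were described by size, with no test. On the Q741 tail, T618I/Q741 was lower than Q741 in all 50 genes, where 65.5% of all genes were lower. The median over the 50 was -0.77 on the log2 scale, compared with -0.16 over all genes. It was -0.86 over the replication genes and -0.66 over the mitotic genes, and the range was -1.17 to -0.23, with Prim1 at 0.418 times its Q741 level and E2f1 at 0.844 times. On the log2(FPKM + 1) scale, 4 of the 50 were at least 2-fold lower, where 1.89% of all genes were. None was 2-fold higher, where 4.74% were. The 4 were Gins1, Prim1, Mad2l1 and Birc5, named after their values were seen. By the ratio of FPKM itself, Ttk, Pola1 and Ccne2 were also more than 2-fold lower, at 0.452, 0.482 and 0.483 times their Q741 levels.

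On the W791 tail the pair stood the other way. T618I/W791 was higher than W791 in 46 of the 50 genes, where 49.7% of all genes were higher. The median was 0.35 over the replication genes and 0.39 over the mitotic genes. The 4 genes below W791, where 50.3% of all genes were, were Cdt1, E2f1, Foxm1 and Kif23, of which Cdt1 was at 0.947 times and Kif23 at 0.878 times its W791 level. Nucleotide supply and the cyclin group had the highest medians, 0.60 and 0.59, and the centromere group had the lowest, 0.23. None of the 50 was 2-fold lower, where 4.26% of all genes were.

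With no tail mutation, T618I was lower than vector in 43 of the 50 genes, where 61.7% of all genes were lower. The median was -0.26 over the replication genes, -0.13 over the mitotic genes and -0.07 over all genes, and none of the 50 differed 2-fold, where 2.73% of all genes were 2-fold higher and 1.27% 2-fold lower. All 12 helicase genes and all 5 fork genes were below vector, at medians of -0.27 and -0.26. The 7 genes above vector, where 38.3% of all genes were, were Rrm2, Ccne1, Ccne2, Ccnb1, Cdc20, Plk1 and Bub1.

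Measured against T618I itself, both double mutants share that library as their reference, so their values are given side by side. T618I/Q741 was lower than T618I in all 50 genes, where 64.7% of all genes were lower, with medians of -0.67 over the replication genes and -0.56 over the mitotic genes. T618I/W791 was higher than T618I in all 50, where 52.5% of all genes were higher, with medians of 0.50 and 0.49. None of the 50 differed 2-fold between T618I/Q741 and T618I, where 1.99% of all genes were higher and 1.47% lower by that much, and none was 2-fold lower in T618I/W791 than in T618I, where 3.09% were. E2f1 had the smallest difference on the Q741 side, at 0.976 times its T618I level, and Ccne1 had the largest on the W791 side, at 2.12 times.

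Set against each other, T618I/W791 exceeded T618I/Q741 in all 50 genes, where 58.1% of all genes were higher. On the log2(FPKM + 1) scale the median difference came to 2.31-fold over the replication genes and 2.14-fold over the mitotic genes. At least 2-fold higher were 35 of the 50, 20 of the 24 replication genes and 15 of the 26 mitotic genes, and 7.58% of all genes were. None was 2-fold lower, and 5.88% of all genes were. The other replication genes, at less than 2-fold, were Mcm7, Cdt1, Gins2 and E2f1.

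**Figure D3:**
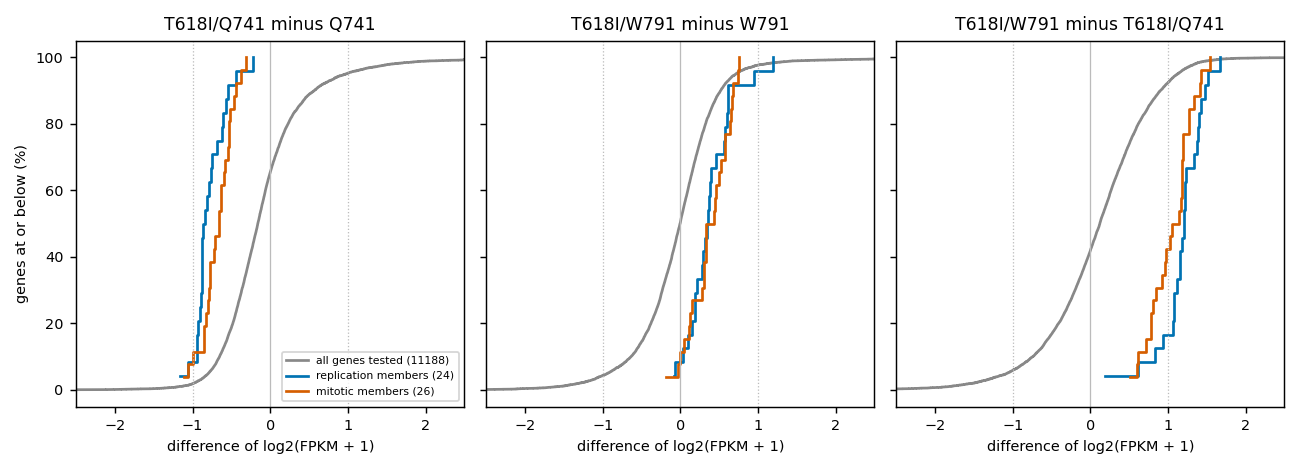
Cumulative share of genes against the difference in log2(FPKM + 1) for T618I/Q741 minus Q741, T618I/W791 minus W791 and T618I/W791 minus T618I/Q741, for all 11188 genes tested, the 24 replication genes and the 26 mitotic genes. The curves of both gene groups lie left of 0 in the first pair, mostly right of 0 in the second and entirely right of 0 in the third.

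The scaling of the libraries moved the size of these differences and kept the direction of their medians. Dividing each library by its median ratio to the others moved the median of all genes from -0.16 to 0.00 for T618I/Q741 minus Q741, and from 0.12 to -0.03 for T618I/W791 minus T618I/Q741. The medians over the 50 genes then were -0.59 and 1.01, with 50 genes below 0 and 50 above 0, and 26 genes at least 2-fold higher in T618I/W791 than in T618I/Q741. Of all 11188 genes tested, 5586 were below 0 in the first pair, and 5378 were above 0 and 508 at least 2-fold higher in the second. With that scaling 49 genes were lowest in T618I/Q741, the exception being E2f1. The share of all genes lowest there with that scaling is not reported here, so the 49 have no background beside them. Of the 50, 43 still had T618I/W791 highest and T618I/Q741 lowest, where 20.0% of all genes did. Setting the FPKM totals equal gave 39 genes with that pattern, where 21.8% of all genes had it.

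Replication and mitotic genes were set beside each other in every library as the mean log2 difference from vector over the genes of each kind. The means were -0.05 for both kinds with W791, -0.06 for replication and -0.03 for mitosis with Q741, and -0.20 and -0.14 with T618I. They were -0.84 and -0.71 with T618I/Q741, and 0.32 and 0.33 with T618I/W791. The replication mean was below the mitotic mean by 0.13 with T618I/Q741 and by 0.01 with T618I/W791, so the kinds stood farthest apart in the library where both were lowest. In summed FPKM the replication genes came to 1108 with vector and 950.3 with T618I, 1052 with W791 and 1388 with T618I/W791, and 1039 with Q741 and 597 with T618I/Q741. The mitotic genes came to 1137, 1044, 1110.2, 1474, 1119.9 and 702 in the same order. Together they made up 0.489% of all FPKM with vector, 0.264% with T618I/Q741 and 0.595% with T618I/W791. In a bulk library, fewer dividing cells and less of this RNA in each dividing cell cannot be told apart.

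**Figure D4:**
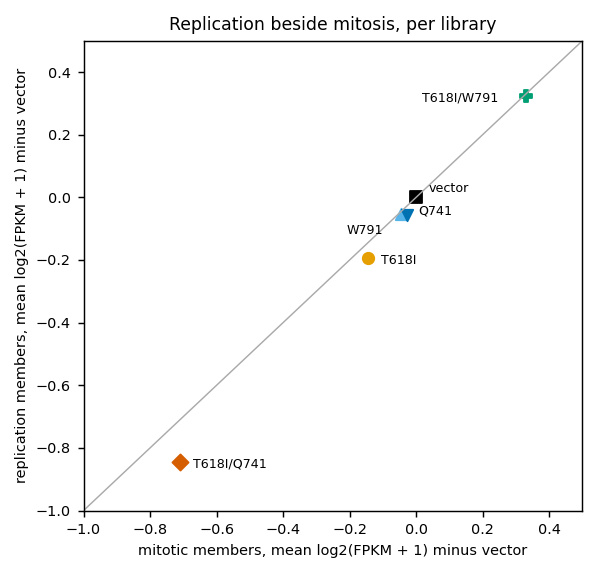
Mean log2 difference from vector over the 24 replication genes (vertical axis) plotted against that over the 26 mitotic genes (horizontal axis), 1 point per library, with a line where both are equal. With the replication mean given first, T618I/Q741 lies at the lower left at -0.84 and -0.71 and T618I/W791 at the upper right at 0.32 and 0.33. The other libraries cluster near 0.

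The comparison named in the design, T618I-containing libraries against truncations, was tested with limma over all 11188 genes with Benjamini-Hochberg adjustment. None of the 50 genes passed an adjusted p of 0.05, and none had an unadjusted p under 0.05 in either direction. Over all genes, 0.179% were called higher and 0.0179% lower, and 4.16% and 4.86% had an unadjusted p under 0.05. Of the 50 differences, 9 were above 0 and 41 below, where 3880 and 7308 of all 11188 genes were. The median over the 50 was -0.19, compared with -0.07 over all genes. The median over the 50 was 0.10 without the T618I/Q741 library and -0.46 without the T618I/W791 library, so its sign rests on which double mutant is kept.

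**Figure D5:**
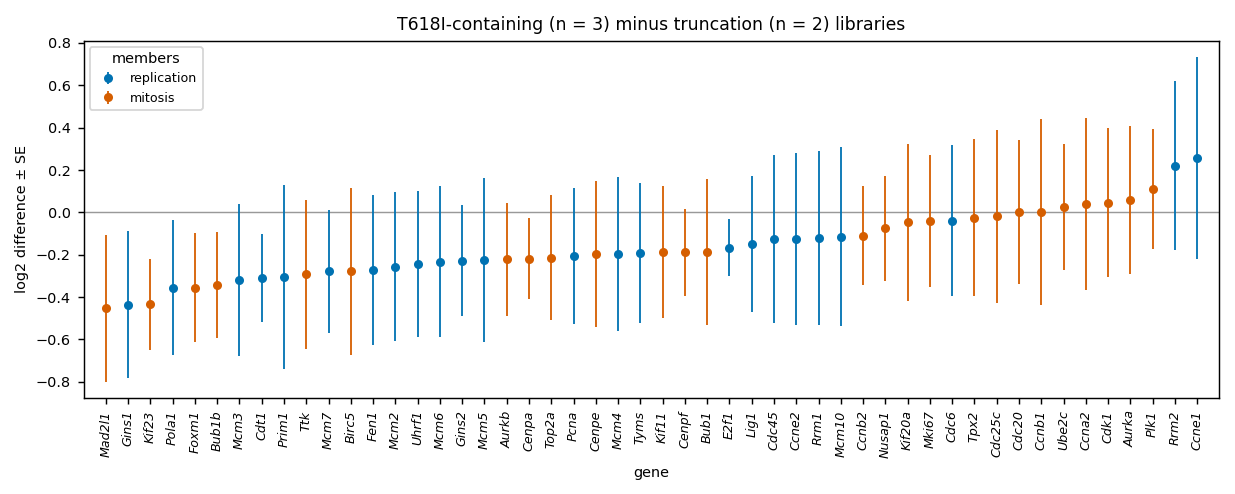
Difference between T618I-containing (n = 3) and truncation (n = 2) libraries in log2(FPKM + 1) for each of the 50 genes, ordered by size, with bars of 1 SE from the limma fit. Values run from -0.45 for Mad2l1 to 0.26 for Ccne1, and none passed an adjusted p of 0.05.

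The 3 T618I-containing libraries did not overlap the 2 truncations in 2 genes, E2f1 and Kif23, both lower, where 21.1% of all genes were, and in none higher, where 9.22% of all genes were. The same 2 genes were also below vector in all 3 T618I-containing libraries, where 18.2% of all genes lay below the 3 libraries without T618I and 8.04% above. Kif23 averaged 22.2 ± 4.88 FPKM (SD, n = 3) in T618I-containing libraries and 29.8 ± 0.152 FPKM (SD, n = 2) in truncations. Its log2 difference was -0.43 ± 0.21 (SE), with an adjusted p of 0.660 from limma, the lowest of the 50. E2f1 averaged 13.5 ± 1.06 FPKM (SD, n = 3) and 15.3 ± 0.220 FPKM (SD, n = 2), a log2 difference of -0.17 ± 0.13 (SE) with an adjusted p of 0.850 from limma. At the ends of the range stood Mad2l1 at -0.45 ± 0.35 (SE) and Ccne1 at 0.26 ± 0.48 (SE), whose T618I-containing libraries spread across both sides of the truncations.

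Values of the T618I-containing libraries were spread far more widely than those of the truncations. Pcna averaged 187 ± 68.5 FPKM (SD, n = 3) in T618I-containing libraries and 206 ± 1.62 FPKM (SD, n = 2) in truncations. For Mcm2 the means were 37.3 ± 14.5 FPKM (SD, n = 3) and 42.4 ± 1.77 FPKM (SD, n = 2). Ccnb1 averaged 55.7 ± 29.5 FPKM (SD, n = 3) and 50.6 ± 1.89 FPKM (SD, n = 2). In all 3 genes the truncation values lay inside the range of the T618I-containing libraries.

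Against vector, T618I-containing libraries gave no call among the 50, where 0.134% of all genes were called higher and 0.0268% lower. The median difference was -0.22, compared with -0.08 over all genes. It was 0.05 without the T618I/Q741 library and -0.48 without the T618I/W791 library. Kif23 alone had an unadjusted p under 0.05, where 5.13% of all genes had one in the lower and 3.38% in the higher direction, and its log2 difference of -0.81 had an adjusted p of 0.494 from limma. Truncations against vector gave no call among the 50 or among all genes by limma, where 0.241% of all genes had an unadjusted p under 0.05 in the higher and 0.411% in the lower direction, and the median over the 50 was -0.05.

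Other genes of the same pathways were described from lists of 77 further replication genes and 91 further mitotic genes, of which 77 and 90 were tested. None of either list passed an adjusted p of 0.05 in T618I-containing libraries against truncations. The further replication genes were lowest in T618I/Q741 in 71 cases, highest in T618I/W791 in 61 and both in 59. For the further mitotic genes these counts were 86, 79 and 75, and of all genes 44.9%, 33.7% and 25.4% were so placed. Their median difference of T618I/W791 from T618I/Q741 was 0.96 on the log2 scale in both lists, with 35 of the 77 and 39 of the 90 at least 2-fold higher, where 7.58% of all genes were.

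Among the further replication genes, low class differences belonged to Tfdp2, the dimer partner of E2F factors, at -0.40 (adjusted p of 0.561 from limma), and Rbl1, the pocket protein p107, at -0.38. The highest belonged to E2f2 at 0.19, Pold4, a small subunit of polymerase delta, at 0.15, and Rb1, the retinoblastoma protein that restrains E2F factors, at 0.14. Pold4 was highest with T618I/Q741 and lowest with T618I/W791, at 32.8 FPKM with vector and 35.8 with T618I, 39.04 with W791 and 25.9 with T618I/W791, and 33.96 with Q741 and 71.5 with T618I/Q741. Among the further mitotic genes the lowest differences were Pkmyt1, the kinase that inhibits Cdk1, at -0.49 (adjusted p of 0.402 from limma), Cks1b, a partner of cyclin-dependent kinases, at -0.44, and Cenpi, a kinetochore protein, at -0.41. The highest were Psrc1, a spindle protein, at 0.83, Cdc25b, an activator of Cdk1, at 0.38, and Zwint, a kinetochore protein, at 0.36. Psrc1, Cdc25b and Zwint were highest in T618I/W791 like most of the 50, but T618I/Q741 was not their lowest library.

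Markers of the cell types such cultures can hold moved with the same libraries, and their part in the levels of the 50 genes was not tested. The 12 neutrophil markers summed to 2606 FPKM with vector and 19868 with T618I, 3772 with W791 and 27073 with T618I/W791, and 3414 with Q741 and 36031 with T618I/Q741, and at least 10 of the 12 were at 1 FPKM or more in every library. The T618I/W791 sum was thus the second highest. S100a8 and S100a9 were the largest parts of the sum in every library, at 15815 and 13781 FPKM with T618I/Q741 and 13614 and 11171 with T618I/W791. With T618I, Camp and Ltf were below vector, at 4.25 and 23.3 FPKM against 9.81 and 24.2, and the other neutrophil markers were above it. The 14 erythroid markers summed to between 94.5 and 97.5 FPKM in the libraries without T618I, to 1271 with T618I/W791, 284 with T618I and 268 with T618I/Q741. Tfrc alone made up most of the sum in each library without T618I, at between 77.1 and 83.8 FPKM. Its highest level, 160 FPKM, was in T618I/W791 and its lowest, 41.9 FPKM, in T618I/Q741, the placement most of the 50 genes had. Apart from Tfrc, every erythroid marker except Hba-a1 was also highest in T618I/W791. At 1 FPKM or more were 4 of the 14 in each library without T618I, 13 with T618I/W791, 13 with T618I and 11 with T618I/Q741. Klf1, the erythroid transcription factor, was at 0.679 FPKM with vector, 4.98 with T618I/Q741 and 16.9 with T618I/W791. By these sums, erythroid markers were highest in the library where most of the 50 genes were highest, and neutrophil markers were highest in the library where all 50 were lowest.

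By their sums, the other marker lists did not follow that order. The 8 mast cell and basophil markers summed to between 1840 and 2400.5 FPKM with vector, W791, Q741 and T618I, and to 697 with T618I/Q741 and 608 with T618I/W791. The 7 monocyte markers summed to between 706 and 1573 FPKM, lowest with T618I/W791, and the 6 megakaryocyte markers to between 347 and 2735 FPKM, highest with T618I. The 6 progenitor markers were at 1 FPKM or more in every library and summed to between 329 FPKM, with T618I/W791, and 510.1 FPKM, with T618I. Kit, the marker used to select the cells, was present in each, and was at 34.5 FPKM with vector, 15.1 with T618I/Q741 and 12.6 with T618I/W791. Of the 5 B lymphoid, 3 T and NK and 5 stromal markers, 1, 0 and 1 were at 1 FPKM or more in each library.

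The mouse gene Csf3r was at 53.1 FPKM with vector and 69.4 with T618I, 52.8 with W791 and 38.8 with T618I/W791, and 56.7 with Q741 and 95.9 with T618I/Q741. Whether reads of the introduced receptor fall on that gene was not known, so it does not check the labels. Estimated depth was about 43.7 M fragments for vector and 21.7 to 27.3 M for the others. The least covered of the 50 genes was Gins1 with T618I/Q741 at about 218 fragments, a counting error of 6.78%, and the counting error does not cover differences between cultures.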

How the data were processed

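Stranded mRNA libraries (TruSeq) were sequenced from 6 samples, 1 per construct, per the labels' protocols. The authors deposited 1 table of gene symbols and a value per library, with no unit in its header. FPKM, the unit Cufflinks writes, was assumed: values carry decimals, and deposited columns sum to between 439505 and 492025. The submitters' processing notes name TopHat, Cufflinks and mm10. Versions, gene annotation and strand use: not given in the sources used here. Columns of the double mutants were matched to titles by their letters. Of 23444 rows, 27 whose symbol had become a date were left out.

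Values were used as log2(FPKM + 1) without rescaling. Because of the added 1, differences understate those of low genes. The 11188 genes reaching 1 FPKM in 2 libraries or more were fitted in limma 3.58.1 (R 4.3.3) with 3 group means and a mean-variance trend, with Benjamini-Hochberg adjustment over all of them at 0.05. Vector, with 1 library, was given the spread of the other groups. Pairs of single libraries were described by a 2-fold size, with no test. The fit was tested on simulated data. Depth is not stated; it was estimated from the steps between low values of genes with 1 transcript and GENCODE M21 lengths, and an error taken from it covers counting only. Gene positions are from GENCODE M21 and promoters from RefSeq, both on mm10.

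The members and all gene lists were chosen with earlier results of these data known. Values in every library are given for Mcm2 to Mcm7, Mcm10, Pcna, Gins1, Gins2, Rrm1, Rrm2, Ccnb1, Ccnb2, Aurka, Aurkb, Plk1, Bub1 and Bub1b, for any member past the threshold, and for the highest and lowest class difference of each functional group; E2f1 and Ccne2 were added after their values were seen. From the wider lists, genes past the threshold and the 3 highest and 3 lowest differences are named, except 1 that is not reported here. Alternatives were other pseudocounts, filters and scalings, vector grouped with truncations, the receptor tail as a block, no trend, and leaving out each library.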

Additional observations from a re-analysis of the deposited data

Results flagged for a closer look

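The difference that goes with T618I stood in opposite directions on the 2 receptor tails. The median over the 50 genes was -0.77 on the log2(FPKM + 1) scale for T618I/Q741 minus Q741, where all 50 genes were below 0. Over all genes tested it was -0.16, with 65.5% below 0. For T618I/W791 minus W791 the median was 0.35, and 46 of the 50 were above 0. Over all genes tested it was -0.004, with 49.7% above 0. Each side is 1 library against 1 library, and the difference between the pairs was not tested.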

How the results depend on the processing

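None of the 50 genes was called in any class comparison under any alternative run; the lowest adjusted p of the 50 under each alternative lay between 0.235 and 0.9998 by limma. Counts over all genes moved more. T618I-containing against truncation gave 3 higher calls with no filter on low values, 75 higher and 22 lower with vector counted with the truncations, 83 higher and 36 lower with the receptor tail as a block, and 2 to 30 higher and 0 to 5 lower with each library left out in turn, against 20 and 2 as reported. T618I-containing against vector gave 6 higher and 16 lower with no filter, 0 lower with a filter at 5 FPKM, 1 lower with median-ratio scaling, and 6 to 28 higher and 0 to 6 lower leaving out each library, against 15 and 3. Truncation against vector gave 9 lower with no filter, against 0.

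The median over the 50 genes for truncation against vector was -0.034 with median-ratio scaling, -0.0031 with equal FPKM totals and -0.046 to -0.040 leaving out each library. For T618I/W791 minus T618I/Q741 it was 1.21 with a pseudocount of 0.1, 1.01 with median-ratio scaling and 1.20 with equal totals. For T618I/Q741 minus Q741 it was -0.81, -0.59 and -0.93 under the same 3 settings, with 7, 1 and 16 genes at least 2-fold lower. Of all 11188 genes tested, 122 were 2-fold lower with median-ratio scaling and 422 with equal totals. The count over all genes with a pseudocount of 0.1 is not reported here. For T618I/W791 minus W791 it was 0.26 with equal totals, and for T618I minus vector -0.094 with median-ratio scaling. The gap of replication below mitosis taken with medians was -0.13 for T618I, -0.20 for T618I/Q741 and -0.081 for T618I/W791.

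Uncalled class differences changed sign for Cdc6 (0.037) and Tpx2 (0.059) with median-ratio scaling and for Cdk1 (-0.059) with equal totals. Leaving out each library gave ranges across 0 for Cdc6 (-0.35 to 0.26), Lig1 (-0.41 to 0.13), Rrm2 (-0.14 to 0.55), Tyms (-0.47 to 0.094), Ccne1 (-0.19 to 0.64), Uhrf1 (-0.50 to 0.076), Cdk1 (-0.28 to 0.32), Plk1 (-0.13 to 0.33), Birc5 (-0.57 to 0.10) and Tpx2 (-0.36 to 0.28). The cause was not tested, beyond that each such setting holds 1 library fewer or rescales all genes. The labels carry no replicate numbers, so libraries were paired only by receptor tail, in the block fit above, with vector standing for no tail mutation. Depth is an estimate, and with 1 library per construct no difference between double mutants has an error.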
